A study of Homo sapiens with 12 samples.

Results

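The GADD45 and BTG/TOB families hold small proteins tied to growth arrest, and their genes were taken by name from RNA-seq tables of RPE-1 and HCT116 cells. All 8 members (GADD45A, GADD45B, GADD45G, BTG1, BTG2, BTG3, TOB1 and TOB2) were found in both tables, among 25914 genes. RPE-1 hTERT is an immortalized, noncancerous line of the retinal pigment epithelium and HCT116 is a colon cancer line. Both are labelled wild-type. The cells received 10 µM Nutlin-3a or DMSO for 24 h, with 3 libraries for each treatment of each line and 12 libraries in all. Nutlin-3a blocks the binding of MDM2 to p53, so that p53 accumulates. DMSO is the solvent control.

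GADD45 proteins bind other proteins, among them the kinase MAP3K4 and the replication clamp PCNA, and are induced by DNA damage and other stress. BTG and TOB proteins share a conserved domain through which they bind the CCR4-NOT complex, the main enzyme that shortens the poly(A) tails of mRNAs, and several of them slow cell growth when they are abundant. GADD45A and BTG2 are known as p53 target genes.

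The level given for each gene is the authors' mean normalized count, which is the read count divided by a size factor for each library and then averaged over libraries. Both tables hold the same mean for every gene, with a largest difference of 0 between them. The mean therefore describes no single cell line or treatment, and the libraries that went into it are not given in the sources used here. Values per library were not analysed here, so the levels carry no replicate error, depth or test, and the response of the genes to Nutlin-3a is not reported. Among genes chosen as markers of HCT116, the epithelial keratin KRT8 had a mean normalized count of 138619 and KRT18 one of 67572. The epithelial cadherin CDH1 had 13336 and the adhesion gene EPCAM 2480. Of the genes chosen for RPE-1, the mesenchymal genes VIM and FN1 stood at 63458 and 71801, and the cadherin CDH2 at 3341. The pooled values cannot show in which line any of these genes was expressed. The p53 targets CDKN1A, a CDK inhibitor, and MDM2, the ubiquitin ligase of p53, were at ranks 15 and 32 of all genes, with 64448 and 45128.

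Of the 8 members, 7 lay among the more abundant genes listed and GADD45G stood apart below them. TOB1 had the highest mean normalized count of the families with 6030, at rank 878 of 25914. BTG2 followed with 5231 at rank 1106, and TOB2 with 4294 at rank 1480. GADD45A had 3800 at rank 1740. These 4 genes lay above 93.3% to 96.6% of all genes listed. BTG1 had 2299 at rank 3250, GADD45B 1990 at rank 3769 and BTG3 1141 at rank 6021. GADD45G had 77.0 at rank 14661, which was below the median of 149.8 over all genes listed. Against the protein-coding genes alone, whose median was 650.6, GADD45G lay above 21.1% of genes and BTG3 above 63.6%.

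**Figure D1:**
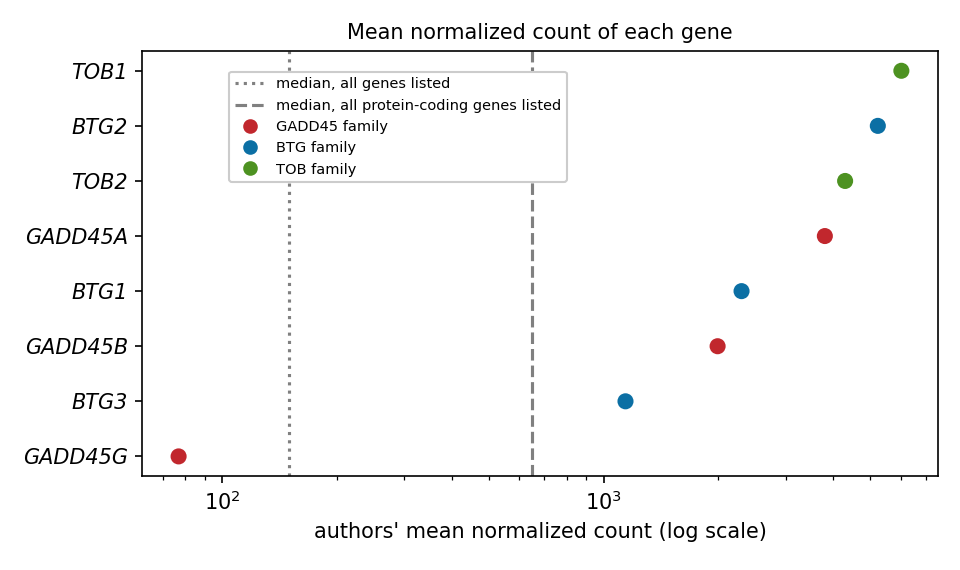
Mean normalized count of the 8 genes as the authors give it (horizontal axis, log scale), with 1 point per gene coloured by family and no error, since the value pools libraries. GADD45G at 77.0 lies left of both medians, 149.8 over all genes (dotted line) and 650.6 over protein-coding genes (dashed line), and the other genes lie between 1141 and 6030.

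Since a long mRNA gives more reads than a short one at the same abundance, levels of different genes are compared below per kb of length. Length was that of the canonical transcript in GENCODE 44. On this scale, the order of the mean normalized counts was kept for 22 of the 28 pairs of members.

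In the GADD45 family, GADD45A (ENSG00000116717) led. It lies on chromosome 1 of hg38 from 67685201 to 67688334 on the + strand, and its canonical transcript has 4 exons and 1352 bases. Its level per kb was 2811, above 96.2% of protein-coding genes. GADD45B (ENSG00000099860), on chromosome 19 from 2476122 to 2478259 on the + strand, has a transcript of 1371 bases and a level of 1451 per kb. GADD45G (ENSG00000130222), on chromosome 9 from 89605012 to 89606555 on the + strand, has 1066 bases and a level of 72.2 per kb. GADD45A was thus 1.94-fold above GADD45B and 38.9-fold above GADD45G in these pooled values. Of the summed level per kb of the family, GADD45A made up 64.9%, GADD45B 33.5% and GADD45G 1.67%. All of them have coding sequences of like length, from 477 to 495 bases.

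In the BTG family, BTG2 (ENSG00000159388) led. It lies on chromosome 1 from 203305491 to 203309602 on the + strand, and its level was 1917 per kb of a transcript of 2729 bases. BTG3 (ENSG00000154640), on chromosome 21 from 17593653 to 17612945 on the − strand, had 809.4 per kb, with a transcript of 1410 bases in 5 exons. BTG1 (ENSG00000133639), on chromosome 12 from 92140278 to 92145846 on the − strand, had 496.6 per kb. BTG1 had the higher mean normalized count than BTG3, but its transcript is the longest of the members with 4629 bases, and only 513 of them are coding. BTG2 made up 59.5% of the summed level per kb of these genes, BTG3 25.1% and BTG1 15.4%. BTG4, the remaining human BTG gene, is not listed in the tables used here.

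TOB1 (ENSG00000141232), on chromosome 17 from 50862223 to 50867978 on the − strand, had a level of 2694 per kb. TOB2 (ENSG00000183864), on chromosome 22 from 41433494 to 41446801 on the − strand, had 990.1 per kb. TOB1 was 2.72-fold above TOB2 per kb, although both code for proteins of almost the same length (coding sequences of 1035 and 1032 bases). The transcript of TOB2 has 4337 bases and that of TOB1 2238. Both genes have 2 exons in the canonical transcript, as do BTG1 and BTG2.

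Over all members, the order per kb was GADD45A, TOB1, BTG2, GADD45B, TOB2, BTG3, BTG1 and GADD45G. Neighbours in this order differed by 1.04-fold to 1.63-fold, except for BTG1 and GADD45G with 6.88-fold. Without replicate values, no spread was available to separate such neighbours. GADD45A and TOB1, the closest pair, changed places per kb of merged exons, where TOB1 had 2392 and GADD45A 1974. Per kb of coding sequence, BTG2 was the highest with 11036 and BTG1 stood above BTG3 with 4481 against 1510. Reads were counted on whole exons, so the coding measure runs high for transcripts with a small coding share, such as that of BTG1. GADD45G was the lowest by each measure of length.

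**Figure D2:**
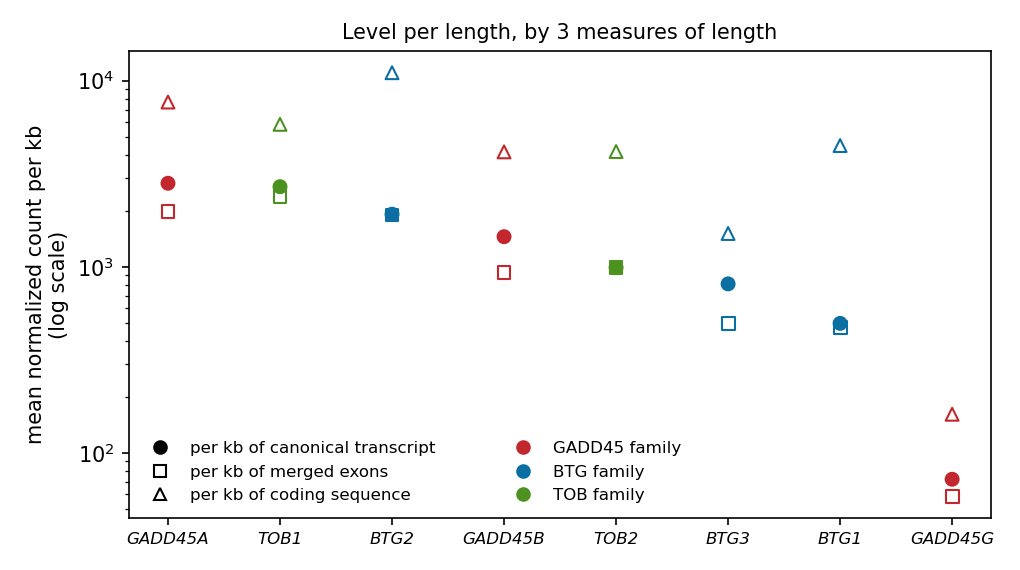
Mean normalized count per kb (vertical axis, log scale) of the 8 genes by length of the canonical transcript (filled circles), of merged exons (open squares) and of the coding sequence (open triangles), coloured by family, with no error since the values are pooled. GADD45G is lowest by all 3 measures, and BTG1 moves most, from 496.6 per kb of transcript to 4481 per kb of coding sequence.

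Genes for the CCR4-NOT complex and for poly(A)-binding proteins were set beside the BTG and TOB genes. All 12 genes of a list of CCR4-NOT subunits and poly(A)-binding proteins were listed, with a median of 606.0 per kb of canonical transcript, against 1221 for the 8 members and 191.0 for all protein-coding genes. The lowest was CNOT6L, a catalytic subunit, with 101.6 per kb. The highest was PABPC1, the main cytoplasmic poly(A)-binding protein, with 18000 per kb. Its value may lack reads shared with close paralogs and pseudogenes, since the methods keep uniquely mapped reads only. CNOT11 and CNOT2, a pair of noncatalytic subunits, lay nearest to the median with 649.7 and 562.3. CNOT7 and CNOT8, the catalytic subunits that BTG and TOB proteins contact, had 371.7 and 906.2 per kb. BTG2 and TOB1 lay above 10 of these 12 genes, TOB2 above 8, BTG3 above 7 and BTG1 above 4. These places depended on the measure of length. BTG1 lay above 10 of the 12 per kb of coding sequence and above 6 per kb of merged exons. TOB2 lay above 10 and 11 by these measures, BTG3 above 6 by both, and BTG2 and TOB1 above 11 by both.

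The list of GADD45 partners held 11 genes, and all were listed, with a median of 359.7 per kb. CDKN1A was the highest with 30443 per kb and TET1, a DNA demethylation enzyme, the lowest with 35.5. TET3, of the same enzyme family, lay at the median, and MAP3K4 had 297.9 per kb. GADD45A lay above 10 of the 11 genes per kb, GADD45B above 9 and GADD45G above 1. PCNA, with 2704 per kb, was close to GADD45A by canonical transcript only. Per kb of merged exons PCNA had 2459 against 1974 for GADD45A, and per kb of coding sequence 4406 against 7677. By merged exons, GADD45A lay above 9 of the 11 genes and GADD45B above 8, while GADD45G stayed above 1. The counts by coding sequence were the same as by transcript.

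Since antisense transcription at promoters is the subject of the study, the annotation was searched for starts on the opposite strand within 2500 bp of each member. Measured from the canonical transcripts, 6 of the 8 members had such a neighbour, against 34.1% of 15740 protein-coding genes. GADD45A and GADD45B had none annotated in GENCODE 44, and starts outside the annotation were not searched for here. At BTG3 alone, the opposite start lay downstream of the gene's own start, so that the 5′ ends overlap, against 7.53% of protein-coding genes. Measured from the outermost starts, BTG1 and TOB1 overlapped their neighbours as well, which made 3 members, against 17.2% of genes. With 8 genes chosen by name, these shares are a description.

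The neighbours found from canonical starts are long noncoding RNAs (lncRNAs), and each one listed had a far lower level per kb of canonical transcript than the member beside it. Reads were counted by strand according to the study's methods, which do not name HCT116. TOB1-AS1 had a level of 45.4 per kb, and TOB1 stood 59.3-fold above it. Their canonical starts lie 400 bp apart, and the outermost start of TOB1 lies 1299 bp from that of TOB1-AS1. BTG3-AS1, whose start is 1186 bp downstream of the BTG3 start, had 50.8 per kb, and BTG3 was 15.9-fold above it. By mean normalized count, 109.1 for TOB1-AS1 and 59.3 for BTG3-AS1, both lncRNAs ranked high in their class, above 90.0% and 83.5% of the 5168 lncRNA genes listed, whose median was 11.8. Protein-coding genes had a median of 650.6, so a lower level of the lncRNA is not particular to these pairs. The neighbour of BTG1 (AC025164.1 in the tables, BTG1-DT in GENCODE 44) starts 356 bp upstream and had 8.98 per kb, which put BTG1 55.3-fold above it. That of BTG2 (LINC01136, now BTG2-DT), 210 bp upstream, had 3.42 per kb, with BTG2 561.3-fold above it. AL161910.1, 952 bp upstream of GADD45G, had 3.36 per kb, and GADD45G was 21.5-fold above it. The neighbour of TOB2 at 134 bp (ENSG00000289841) is not listed in the tables. Without division by length, GADD45G was 8.41-fold and BTG1 117.4-fold above its neighbour, and these were the only ratios of the 5 that moved by over 1.5 times.

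**Figure D3:**
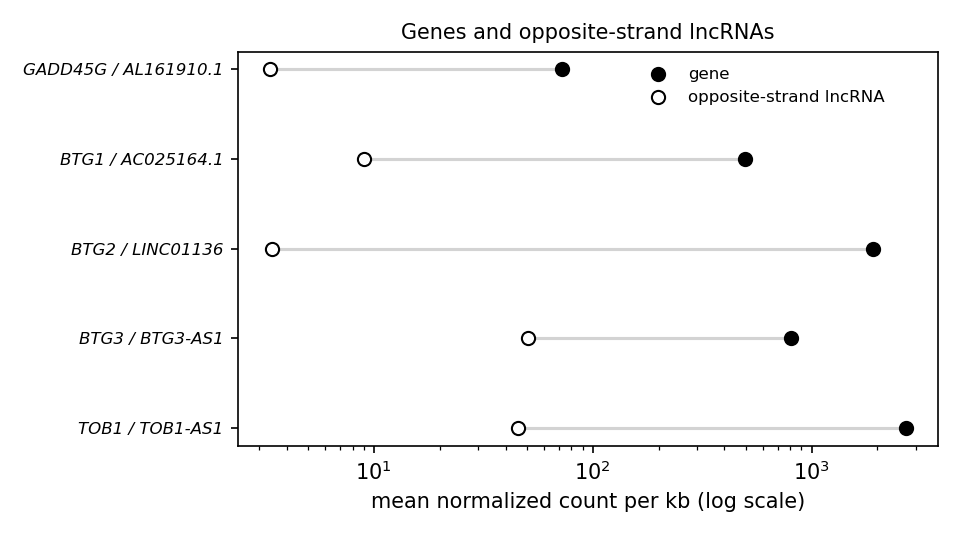
Mean normalized count per kb of canonical transcript (horizontal axis, log scale) of 5 genes (filled circles) and of the lncRNA that starts on the opposite strand near each (open circles), joined by a line, as the authors' pooled values with no error. Each gene lies right of its lncRNA, from 15.9-fold at BTG3 to 561.3-fold at BTG2. The BTG2 and GADD45G ratios rest on low mean normalized counts of 8.67 and 9.15 for their lncRNAs.

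The stretches between the outermost starts of BTG2 and TOB2 and of their divergent neighbours are shown because they are the shortest among the members, and they hold no exon of either gene of the pair. They lie at chr1:203305316-203305490, + strand, and chr22:41446802-41446934, − strand, of hg38. They are printed 5′ to 3′ on the strand of BTG2 or TOB2, with CCAAT and GGGCGG, or their reverse complements, in capitals.
BTG2: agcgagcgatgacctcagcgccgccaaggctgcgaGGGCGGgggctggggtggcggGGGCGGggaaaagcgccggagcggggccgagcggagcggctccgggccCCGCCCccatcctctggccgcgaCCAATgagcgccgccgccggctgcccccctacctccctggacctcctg
TOB2: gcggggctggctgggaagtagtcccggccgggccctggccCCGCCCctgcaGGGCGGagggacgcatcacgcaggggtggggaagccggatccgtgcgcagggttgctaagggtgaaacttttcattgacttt
The BTG2 stretch has 175 bases with 78.3% G and C, and the TOB2 stretch 133 bases with 67.7%. GGGCGG, searched on both strands, matched 3 times at BTG2 and 2 times at TOB2, and 38.6% and 35.4% of 35116 RefSeq promoter windows of the same lengths (GRCh38.p14) hold it. CCAAT matched once at BTG2, as in 25.8% of such windows, and not at TOB2. TATAAA and the p53 half-site consensus had no match in either stretch. They occur in 7.62% and 3.76% of the windows of the BTG2 length, and in 6.08% and 2.71% of those of the TOB2 length. The p53 search allowed no mismatch, so sites that deviate from the consensus would be missed. The matches describe these letters only and do not mark bound sites.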

How the data were processed

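RNA-seq reads of RPE-1 and HCT116 cells were processed by the authors. The labels describe ribosomal RNA depletion and the paper's methods poly(A) selection. According to the methods, reads were trimmed, mapped to hg38 with Ensembl 102 by segemehl, kept if uniquely mapped, and counted on exons by strand. The paper's methods name RPE-1 but not HCT116. The authors used Trimmomatic 0.39, cutadapt 3.3, SAMtools 1.12, featureCounts 2.0.1 and DESeq2 1.32.0, per the submitters' processing notes.

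The deposited signal is the base mean that the authors obtained with DESeq2, called mean normalized count here, with 1 pooled value per gene and no length scaling. The other 5 numeric columns of each table hold the authors' own comparison of Nutlin-3a with DMSO (log2 fold change, its standard error, test statistic, p-value and adjusted p-value). They were not used. No counts per library were analysed, so depth is unknown, and the planned tests of treatment and cell line could not be run on these files.

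Groups came from the labels. Members, partner lists and settings were chosen with earlier results of these data known. The text names all members and, of each list, the lowest, the highest and those nearest the median. CNOT7, CNOT8 and PCNA were added after their values were seen. Ranks, percentiles and levels per kb were computed with Python 3.11.15, numpy 2.4.6 and pandas 2.3.3, drawn with matplotlib 3.10.9, and tested on simulated data. GENCODE 44, on the same build, held 25836 of the 25914 genes and supplied coordinates, lengths and starts. Alternatives were genes with a mean of at least 10, protein-coding genes only, coding length and, chosen after seeing the data, merged exons, outermost starts and the counts of partner genes below a member by other lengths.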

Additional observations from a re-analysis of the deposited data

How the results depend on the processing

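Of the 8 members, 7 lay above 75% of all genes listed, and 6 did so among genes with a mean normalized count of at least 10 and also among protein-coding genes. The pairs ordered per length as by mean normalized count were 22 of 28 by transcript, 24 by coding sequence and 24 by merged exons. Members with an opposite-strand start nearby were 6 with either kind of start, and those overlapped by it at the 5′ end were 1 with canonical starts and 3 with outermost starts.

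No paired analysis was possible because the values used pool the libraries. For the same reason leaving out a replicate, other normalizations, another count model and a filter on counts per library were not run. Precision and depth of the pooled values are unknown.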
